A study of Mus musculus with 6 samples.

Results

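Extracellular ATP and adenosine signalling was described through 10 genes in sorted mammary gland macrophages, namely the enzyme genes Entpd1, Nt5e and Ada, the adenosine receptor genes Adora2a, Adora2b and Adora3, the ATP-gated channel genes P2rx4 and P2rx7, and the nucleotide receptor genes P2ry6 and P2ry12. They were taken by symbol from the 43432 genes of the deposited table, where 11 rows carry these 10 symbols because Adora3 stands on 2 rows. The cells were taken at 11 weeks and at 8 weeks from female MMTV-PyMT mice (strain FVB/N), with 3 libraries at each age. All 6 libraries thus come from the same transgenic genotype, in which a viral mammary promoter drives the polyomavirus middle T oncogene in mammary epithelium, and no gland without the transgene was among them. Cells were sorted as CD45+, MHCII+ and CD14+, and CD14 is a surface antigen of monocytes and macrophages. The sample titles call the cells TAMs (tumour-associated macrophages). Samples carry numbers within an age, with no statement that each is its own mouse, so p-values measure the spread between samples, which may be technical.

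ATP and ADP leave stressed or dying cells and act on P2X channels, which open to cations, and on P2Y receptors, which couple to G proteins. On the cell surface CD39, the product of Entpd1, strips ATP and ADP to AMP, and CD73, the product of Nt5e, turns AMP into adenosine, which adenosine deaminase removes as inosine. Adenosine receptors of the Adora2a and Adora2b type raise cyclic AMP, which restrains inflammatory output of macrophages, while the Adora3 type lowers it. The P2X7 channel responds to high ATP and is a known trigger of the NLRP3 inflammasome.

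The 6 libraries held 38784434 to 75004880 recovered reads and 17385 to 19722 detected genes. Macrophage transcripts were abundant, and the summed level of 8 macrophage markers was 612673 to 716605 normalized counts at 11 weeks and 598555 to 808525 at 8 weeks. Most of it was Lyz2, at 411884.8 to 623180.1 over the 6 libraries. Transcripts of other cells were also present, and 4 of these marker sums lay higher and 2 lower at 11 weeks without overlap. The 9 mammary epithelial markers summed to 23715 to 45274 normalized counts at 11 weeks against 7607 to 11208 at 8 weeks. Most of it was the milk protein gene Csn3. Of these 9 genes 8 had a positive log2 fold change, and 3 (Csn2, Csn3 and Krt19) were higher without overlap. The 7 neutrophil markers summed to 1849 to 3888 against 352 to 1057. Of the 5 tested, 4 had a positive log2 fold change, and 3 (S100a8, S100a9 and Cxcr2) were higher without overlap. Ly6g, a surface antigen gene, was at no more than 0.9 in any library. Mmp8, a granule gene, was at 12.7 to 840.7 at 11 weeks and 86.5 to 768.9 at 8 weeks. The 6 fibroblast markers summed to 1290 to 3023 normalized counts at 11 weeks against 585 to 1050 at 8 weeks. The 6 endothelial markers summed to 535 to 1049 against 256 to 382, with 4 positive and 2 negative log2 fold changes. Cdh5 was higher without overlap, at 123 to 569.2 against 14.5 to 70.4, and Tek was lower, at 0 to 9.1 against 13.9 to 30.7. The sum of 8 T cell markers was lower, at 2842 to 3886 against 4109 to 4974, and most of it was Cd4 and Cd2. Of these 8 genes 5 had a positive log2 fold change, with a median of 1.01, and Cd3e was higher without overlap, at 170.1 to 345.8 against 5.1 to 117.8. The sum of 6 conventional dendritic cell markers was also lower, at 3887 to 5003 against 5064 to 6570, as Entpd1, P2rx7 and Adora3 were. Most of this sum was Cd209a, which was lower without overlap, as was Zbtb46. The other 4 of these 6 genes had positive log2 fold changes, and the median was 0.41. The parts of these cells in the results below were not tested.

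None of the 10 genes passed an adjusted p of 0.05 between 11 and 8 weeks, as judged with limma on log2(normalized count + 1) over 21675 genes. The same fit called 11 of all genes tested (0.0507%), while edgeR on the recovered reads called 14 (0.0646%) and DESeq2 418 (1.93%), with none of the 10 genes among either. The authors' deposited table gave 1.21% of genes an adjusted p under 0.05, none of the 10 among them. At an unadjusted p under 0.05 limma found 3 of the 11 rows, P2rx7, Entpd1 and Adora2b, where 8.03% of all genes tested had such a p (4.76% higher and 3.27% lower at 11 weeks). edgeR found 2 of them, Entpd1 and P2rx7, beside 8.99% of all genes. DESeq2 found 4, with Adora2b and the main row of Adora3 added, beside 9.87%. An unadjusted p under 0.05 was given to 7.82% of genes by the authors' deposited table, among them P2rx7, Entpd1 and the main row of Adora3. In that table Adora2b had a p of 0.051, and Adora2a had no p or adjusted p.

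Of the 10 genes, 4 had values that did not overlap between the ages, where 11.9% of all genes tested did so. Entpd1, P2rx7 and Adora3 lay lower in all 3 libraries at 11 weeks, which 5.12% of tested genes did, and Adora2b lay higher, which 6.81% did. Genes of low level are among all genes tested, and the 10 genes were chosen with earlier results known. These shares are therefore not a matched background. The median log2 fold change of the 10 genes, with Adora3 on its main row, was 0.02, beside 0.05 over all genes tested. In these bulk samples, fewer cells of a type and less RNA per cell cannot be told apart.

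**Figure D1:**
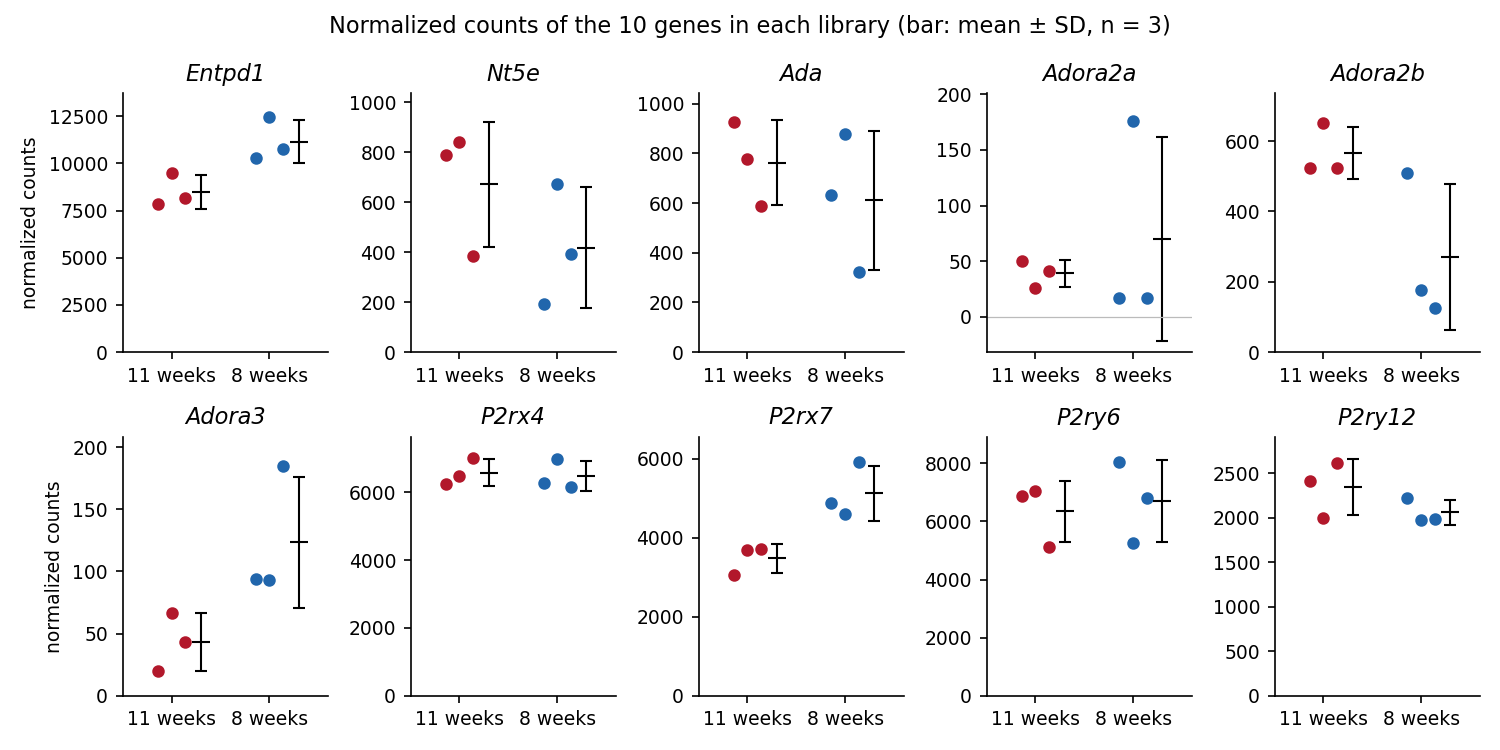
Normalized counts (vertical axis of each panel, linear) of the 10 genes in the 3 libraries at 11 weeks (red, left) and the 3 at 8 weeks (blue, right), with the mean and SD beside each group. The groups stand apart in Entpd1, P2rx7, Adora3 and Adora2b, in the last by 14.8 normalized counts, and overlap in the others.

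Among the enzymes, Entpd1 was the most abundant. Entpd1 (ENSMUSG00000048120, chromosome 19 from 40612366 to 40741602, plus strand, protein coding) stood at 7824.8, 9505.2 and 8148.1 normalized counts at 11 weeks and at 10255.6, 12439.3 and 10755.6 at 8 weeks. The 11-week libraries were all lower, and 750.4 normalized counts separated the highest of them from the lowest 8-week library. The means were 8493 ± 892 at 11 weeks and 11150 ± 1144 at 8 weeks (SD, n = 3 each), a log2 fold change of -0.39 ± 0.18 (SE; 95% interval -0.77 to -0.01; limma adjusted p = 0.609). Expressed as a ratio of means, Entpd1 at 11 weeks was 0.76 of its 8-week level. RefSeq lists 2 starts for this gene, and the 250 bases before the inner one are shown because this window held 2 copies of a short motif of PU.1, a myeloid lineage factor.
Entpd1, chr19:40659520-40659769, plus strand, GRCm38.p6: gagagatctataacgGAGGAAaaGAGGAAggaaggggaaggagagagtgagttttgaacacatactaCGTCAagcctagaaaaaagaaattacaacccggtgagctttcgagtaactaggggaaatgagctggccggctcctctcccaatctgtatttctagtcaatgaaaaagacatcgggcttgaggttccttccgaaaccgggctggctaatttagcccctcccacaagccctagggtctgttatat

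The capitals in this and the following windows mark matches on either strand to 5 motifs. They were GAGGAA (PU.1 core), ACGTG (hypoxia response core), TGANTCA (AP-1), TTCNNNGAA (gamma-interferon activation site) and TGACG (cyclic AMP response half-site). Over 32851 RefSeq windows of the same length, 23.3% held the PU.1 core, 16.6% the hypoxia core, 6.75% the AP-1 motif, 7.02% the interferon site and 17.8% the cyclic AMP half-site. The Entpd1 window held GAGGAA at 235 and 227 bases before the start and the cyclic AMP half-site at 183. The window before its outer start, which is not shown, held no GAGGAA and 1 cyclic AMP half-site. A match is a string of letters and not evidence of binding.

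Nt5e and Ada, the next 2 enzymes in the chain, overlapped between the ages. Nt5e (chromosome 9 from 88327197 to 88372092, plus strand) stood at 789.8, 838.7 and 384.3 normalized counts at 11 weeks and at 190.8, 670.5 and 392 at 8 weeks. The third 11-week library lay inside the 8-week range, and the lowest 8-week library was replicate 1. Its log2 fold change was 0.78 ± 0.50 (SE; 95% interval -0.28 to 1.84; limma adjusted p = 0.745). Nt5e is also made by fibroblasts and lymphocytes. Among the 11-week libraries the fibroblast sum was lowest in replicate 2 (1290 normalized counts), where Nt5e was highest. Among the 8-week libraries both were highest in replicate 2, where the fibroblast sum was 1050 normalized counts. Between the ages the fibroblast sum was higher at 11 weeks. The part of fibroblasts in the Nt5e values was not tested. Ada (chromosome 2 from 163726584 to 163750239, minus strand) stood at 926.8, 776.2 and 587.3 normalized counts at 11 weeks and at 632.2, 878.3 and 322 at 8 weeks. The lowest value of Ada came from 8-week replicate 3, and its log2 fold change was 0.41 ± 0.41 (SE; limma adjusted p = 0.821).

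The balance between the first and second enzyme was read within each library, where the scaling of the library cancels. Per kilobase of exon, the Entpd1 level was 15.3, 17.5 and 32.7 times the Nt5e level at 11 weeks and 82.9, 28.6 and 42.3 times at 8 weeks. The mean ratio was 21.8 ± 9.48 at 11 weeks and 51.3 ± 28.2 at 8 weeks (SD, n = 3 each), and the groups overlapped through 11-week replicate 3 and 8-week replicate 2. Nt5e per kilobase stood at 0.152 to 0.251 of Ada at 11 weeks and at 0.0702 to 0.283 of it at 8 weeks.

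Among the receptors of the 10 genes, the adenosine receptors were the least abundant per kilobase of exon, with Adora2b leading. Adora2b (ENSMUSG00000018500, chromosome 11 from 62248984 to 62266453, plus strand, protein coding) encodes a receptor of low affinity for adenosine. It stood at 524.1, 651.2 and 523.9 normalized counts at 11 weeks and at 509.1, 177.3 and 126.4 at 8 weeks. The 11-week libraries were alike, while 8-week replicate 1 lay just below them and far above the other 8-week libraries. The means were 566 ± 73.4 at 11 weeks and 271 ± 208 at 8 weeks (SD, n = 3 each), a log2 fold change of 1.32 ± 0.53 (SE; 95% interval 0.20 to 2.44; limma adjusted p = 0.54). Without 8-week replicate 1 the log2 fold change was 1.90 (limma adjusted p = 0.366) and without 8-week replicate 3 it was 0.90 (limma adjusted p = 0.845). Epithelial marker sums were also higher at 11 weeks, and among the 11-week libraries the sum was lowest in replicate 2 (23715 normalized counts), where Adora2b was highest. The part of epithelial cells in the Adora2b values was not tested. Its window is shown as that of the 1 gene of the 10 that lay higher without overlap, and none of the 5 motifs was found in it.
Adora2b, chr11:62248734-62248983, plus strand, GRCm38.p6: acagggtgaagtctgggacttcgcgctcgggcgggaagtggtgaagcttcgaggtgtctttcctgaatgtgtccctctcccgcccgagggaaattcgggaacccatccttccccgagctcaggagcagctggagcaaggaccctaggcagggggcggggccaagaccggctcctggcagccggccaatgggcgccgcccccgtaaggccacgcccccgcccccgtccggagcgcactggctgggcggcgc

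Adora3 and Adora2a were near the limit of what these libraries can compare. The main Adora3 row (ENSMUSG00000000562, chromosome 3 from 105870858 to 105908928, plus strand, protein coding) stood at 20.2, 66.5 and 43.5 normalized counts at 11 weeks and at 93.6, 92.8 and 184.5 at 8 weeks. These values rest on 22 to 66 recovered reads at 11 weeks and 67 to 216 at 8 weeks, with the lowest 8-week library 26.3 normalized counts above the highest 11-week one. The log2 fold change was -1.56 ± 0.86 (SE; 95% interval -3.40 to 0.27; limma adjusted p = 0.693). The second Adora3 row (ENSMUSG00000074344), which the GENCODE M21 annotation calls Tmigd3, was listed at 11, 7.1 and 0 normalized counts at 11 weeks, against 3.6, 31.9 and 0 at 8 weeks. A count of 0 allows up to 2.72 normalized counts in 11-week replicate 3 and 2.56 in 8-week replicate 3. In that annotation Adora3 and Tmigd3 share 779 bases of exon on the same strand, 20.9% of the Adora3 exons, so which gene gave the Adora3 reads is uncertain. Mast cells and eosinophils also use Adora3. The summed mast cell and basophil markers were 79.6 to 354 normalized counts at 11 weeks and 55.4 to 167 at 8 weeks, with Mcpt8 at 0 throughout. Of the 3 tested, Mcpt4 and Tpsb2 had positive log2 fold changes (1.90 and 2.09) and Cpa3 a negative one (-2.03), all with overlap. The part of mast cells and basophils was not tested. The eosinophil granule genes Epx and Prg2 were at 0 in all 6 libraries, and Siglecf, a surface antigen of eosinophils, was at 569.2, 59.5 and 0.9 at 11 weeks and at 67.8, 31.9 and 1.7 at 8 weeks. The part of eosinophils was not tested. The window before the RefSeq start of Adora3 held the AP-1 motif at 98 bases before the start and the PU.1 core, read on the other strand, at 28.
Adora3, chr3:105904171-105904420, plus strand, GRCm38.p6: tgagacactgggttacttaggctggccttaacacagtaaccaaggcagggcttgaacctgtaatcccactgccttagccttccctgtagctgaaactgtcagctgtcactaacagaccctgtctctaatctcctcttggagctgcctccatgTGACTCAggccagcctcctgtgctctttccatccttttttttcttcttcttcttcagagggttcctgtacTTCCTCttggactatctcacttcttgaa

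Adora2a (chromosome 10 from 75316943 to 75334788, plus strand), the high-affinity receptor that raises cyclic AMP, stood at 50.6, 26.2 and 40.8 normalized counts at 11 weeks and at 16.9, 175.9 and 17.1 at 8 weeks. A single library, 8-week replicate 2, held the 8-week mean of 70 ± 91.7 above the 11-week mean of 39.2 ± 12.3 (SD, n = 3 each). On the log scale the difference was 0.01 ± 1.14 (SE; 95% interval -2.40 to 2.42; limma adjusted p = 0.998), and without 8-week replicate 2 it was 1.11 (limma adjusted p = 0.855). With edgeR and DESeq2 on the recovered reads the sign was negative, at -0.85 (edgeR adjusted p = 0.874) and -0.83 (DESeq2 adjusted p = 0.848). Adora2b exceeded Adora2a per kilobase in each of the 6 libraries, 17.2 to 41.2 times at 11 weeks and 1.67 to 50 times at 8 weeks. Adora1, the remaining adenosine receptor and an inhibitory one, stood at 47.8, 12.1 and 27.2 normalized counts at 11 weeks and at 3.6, 0 and 13.7 at 8 weeks (limma adjusted p = 0.684).

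The ATP-gated channels were abundant, and the 2 genes, neighbours on chromosome 5, differed in their values by age. P2rx7 (ENSMUSG00000029468, chromosome 5 from 122643911 to 122691432, plus strand, protein coding) stood at 3060, 3680.5 and 3714.2 normalized counts at 11 weeks and at 4869.2, 4606.4 and 5924 at 8 weeks. The 11-week libraries were all lower, with 892.2 normalized counts between the groups. The means were 3485 ± 368 at 11 weeks and 5133 ± 697 at 8 weeks (SD, n = 3 each), a log2 fold change of -0.56 ± 0.21 (SE; 95% interval -1.01 to -0.10; limma adjusted p = 0.5). Its fold change kept its sign in all 16 alternatives, between -0.64 and -0.45, and its smallest adjusted p among them was that of DESeq2, 0.139. The authors' deposited table gave P2rx7 a log2 fold change of -0.527 and an adjusted p of 0.152. The 250 bases before the outer of its 2 RefSeq starts are shown because P2rx7 had the smallest p of the 10 genes, and they held the AP-1 motif at 249 bases before the start. None of the motifs was found in the window before the inner start.
P2rx7, chr5:122643677-122643926, plus strand, GRCm38.p6: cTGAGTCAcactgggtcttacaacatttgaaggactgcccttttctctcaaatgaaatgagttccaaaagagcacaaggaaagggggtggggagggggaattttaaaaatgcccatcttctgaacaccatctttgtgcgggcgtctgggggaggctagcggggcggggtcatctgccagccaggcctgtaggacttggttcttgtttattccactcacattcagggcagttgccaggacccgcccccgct

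P2rx4 (chromosome 5 from 122707584 to 122729738, plus strand) encodes a channel that opens at lower ATP and sits largely in lysosomes. It stood at 6245.1, 6486 and 7019.7 normalized counts at 11 weeks and at 6289.6, 6976.8 and 6169.1 at 8 weeks. The ages overlapped almost wholly, and the log2 fold change was 0.02 ± 0.19 (SE; 95% interval -0.37 to 0.42; limma adjusted p = 0.979). Within each library P2rx7 per kilobase was 0.577, 0.668 and 0.623 of P2rx4 at 11 weeks and 0.911, 0.777 and 1.13 of it at 8 weeks. The ratio averaged 0.622 ± 0.0456 at 11 weeks and 0.939 ± 0.178 at 8 weeks (SD, n = 3 each), with no overlap. It was calculated after the values of both genes were known and was not tested.

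**Figure D2:**
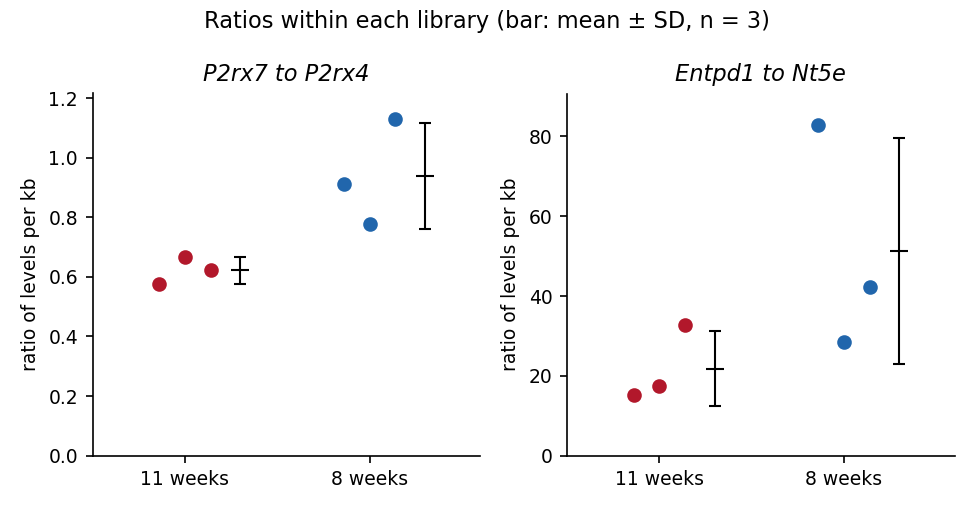
Ratio of exon-length-adjusted levels within each library (vertical axis, linear) for P2rx7 to P2rx4 and for Entpd1 to Nt5e, at 11 weeks (red, left) and 8 weeks (blue, right), with mean and SD. The P2rx7 to P2rx4 ratio was at most 0.668 at 11 weeks and at least 0.777 at 8 weeks, while the Entpd1 to Nt5e ratio overlapped.

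General macrophage and leukocyte genes lay on both sides. The 8 macrophage markers had 4 positive and 4 negative log2 fold changes, with a median of -0.02. Csf1r, the CSF1 receptor that marks macrophages, was at 54613 to 59567.7 normalized counts at 11 weeks and at 64409.9 to 70989.5 at 8 weeks (limma adjusted p = 0.609). Ptprc, which encodes CD45, was at 24310.2 to 29260.7 against 33328 to 37120.6 (limma adjusted p = 0.434). Fcgr1, an Fc receptor gene, was higher without overlap, at 3649.4 to 4997.1 against 1645 to 3383.1 (limma adjusted p = 0.481). So was Cd14, an antigen of the gate, at 30445 to 38151 against 19463.2 to 23109.5 (limma adjusted p = 0.198). The MHCII genes of the gate went the other way. H2-Ab1 was lower without overlap, at 68757 to 88453.3 against 138905.2 to 152571.6, and was called (limma adjusted p = 0.0127). H2-Aa had a lower mean at 11 weeks with overlap, at 79262.1 to 158035.6 against 144768.6 to 206671.2 (limma adjusted p = 0.442). So did H2-Eb1, at 612.4 to 1069.5 against 1049.7 to 1708.4 (limma adjusted p = 0.704). Long gene models were lower at 11 weeks somewhat more often than short ones. Of genes averaging 100 or more normalized counts, 8.25% of those with 4617 to 7043 bases of exon, which include Entpd1 at 5580 and P2rx7 at 5970, lay lower without overlap. The share was 5.62% among genes of up to 2893 bases and 10.9% among those of 7044 bases or more. The part of length in the results of Entpd1 and P2rx7 was not tested.

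The 2 P2Y receptors of the set overlapped between the ages. P2ry6 (chromosome 7 from 100937638 to 100964391, minus strand), the receptor for UDP, stood at 6876.8, 7041.5 and 5136.3 normalized counts at 11 weeks and at 8046.1, 5245 and 6797.8 at 8 weeks, a log2 fold change of -0.07 ± 0.22 (SE; 95% interval -0.53 to 0.39; limma adjusted p = 0.942). Each age held 1 low library, replicate 3 at 11 weeks and replicate 2 at 8 weeks. P2ry12 (chromosome 3 from 59216271 to 59262831, minus strand), an ADP receptor known from microglia and platelets, stood at 2415.5, 1999 and 2615.7 normalized counts at 11 weeks and at 2219.3, 1974.2 and 1991.8 at 8 weeks. The 8-week libraries were close together and the second 11-week library lay among them, and the log2 fold change was 0.18 ± 0.24 (SE; 95% interval -0.34 to 0.69; limma adjusted p = 0.847). P2ry12 lies inside the span of Med12l on the opposite strand, and nothing says whether reads were counted by strand.

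Other microglia and platelet genes are given beside P2ry12. Tmem119 and Gpr34 were at 2056.9 to 4104.9 and 1561.5 to 1938.7 normalized counts at 11 weeks and at 2633.2 to 3023.5 and 1192.8 to 2123 at 8 weeks, and Siglech was lower without overlap, at 102.8 to 252 against 302.3 to 478. Olfml3 was at 685.9 to 1596.8 against 1173.4 to 1756.9, and Sall1, a microglial transcription factor gene, was at 0 in all 6 libraries. The 4 platelet markers together reached 69 to 249 normalized counts at 11 weeks and 29.9 to 107 at 8 weeks. The part of platelets in the P2ry12 values was not tested.

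**Figure D3:**
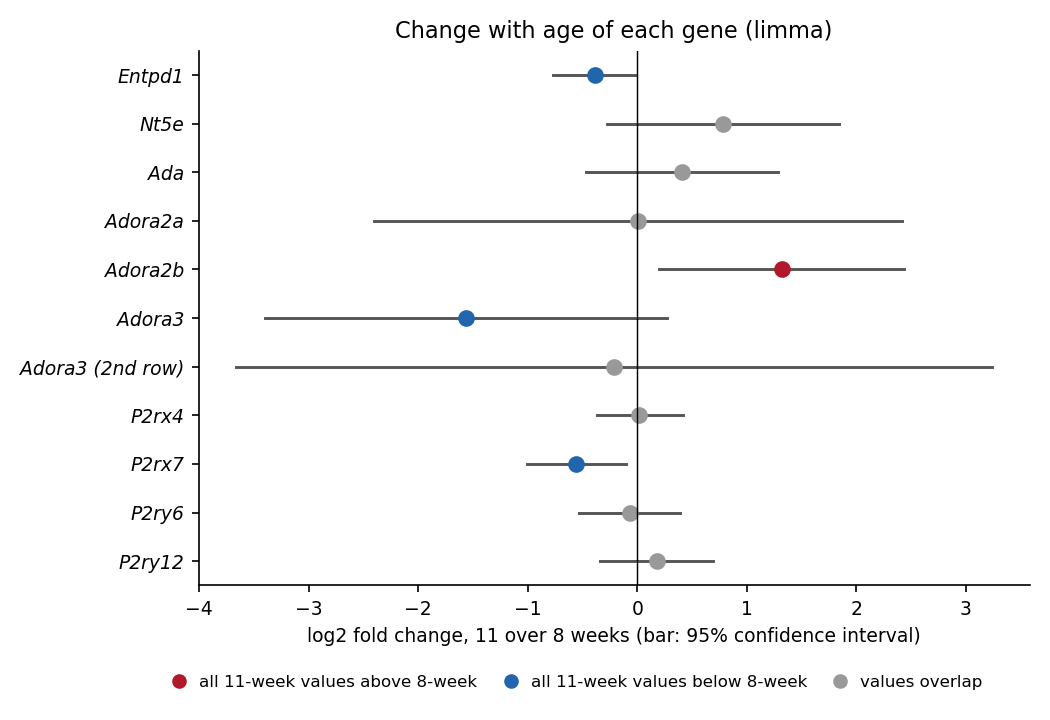
Log2 fold change of 11 over 8 weeks (horizontal axis) for the 11 rows of the 10 genes, with the 95% confidence interval from limma. Red and blue mark genes whose values at the 2 ages do not overlap, and the intervals are widest for Adora2a and the second Adora3 row, the least abundant rows.

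Levels were compared between genes per kilobase of exon, with exon lengths from GENCODE M21. P2ry6 was the highest with a mean of 2260 normalized counts per kilobase over the 6 libraries, above 98% of the tested genes with a length. Entpd1 followed with 1760, then P2rx4 with 930, P2ry12 with 865 and P2rx7 with 722. The ranges of P2ry6 and Entpd1 overlapped, as did those of P2rx4 with P2ry12 and of P2ry12 with P2rx7, whereas Entpd1 stood above P2rx4 and P2rx7 above Ada in all 6 libraries with no overlap of their ranges. Ada reached 343, Adora2b 227, Nt5e 63.3, Adora3 22.4 and Adora2a 17.8 normalized counts per kilobase. Ada exceeded Adora2b, and Adora2b exceeded Nt5e, in each of the 6 libraries although their ranges overlapped. Adora3 exceeded Adora2a in 3 of the 6 libraries, so these 2 genes could not be ordered.

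**Figure D4:**
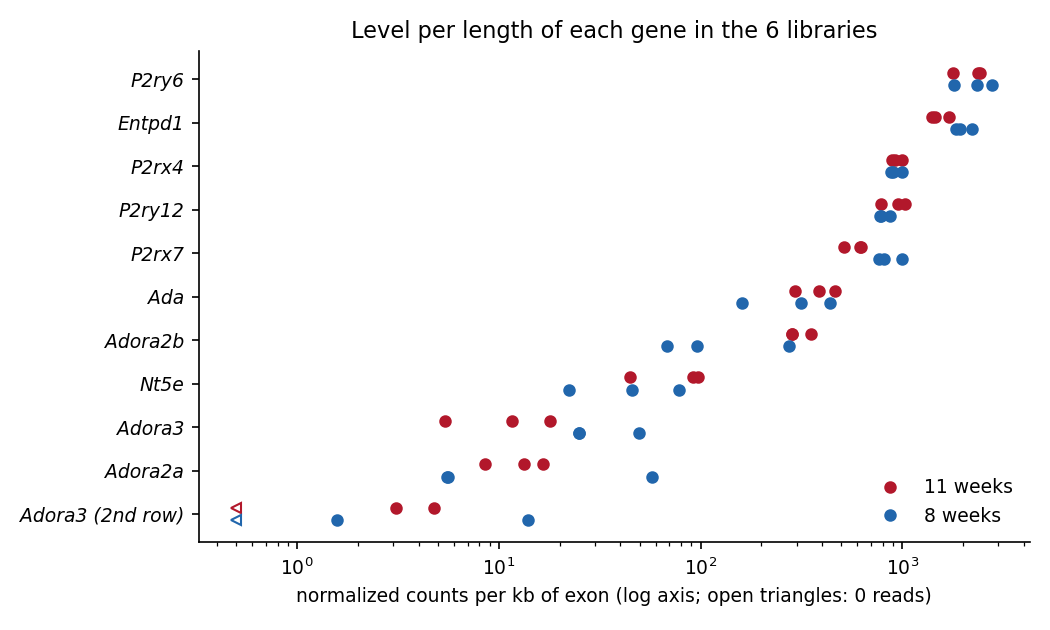
Normalized counts per kilobase of exon (horizontal axis, log scale) for each row of the 10 genes, ordered by their mean, with 1 point per library at 11 weeks (red, upper) and 8 weeks (blue, lower). Open triangles at the left edge mark libraries with 0 reads, and the mean runs from 2260 for P2ry6 to 3.89 for the second Adora3 row.

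The wider set held 58 genes in 10 lists of nucleotide and adenosine handling, the inflammasome and the cyclic AMP pathway, of which 56 were tested. None passed an adjusted p of 0.05 with limma, and 12 had an unadjusted p under 0.05, beside 8.03% of all genes tested. These 12 include Entpd1, P2rx7 and Adora2b. DESeq2 called 4 of the 56 (Enpp3, Bst1, Gja1 and Il1b), beside 1.93% of all genes, and edgeR none. The authors' deposited table gave an adjusted p under 0.05 to 3 (Bst1, Gja1 and Il1b), beside 1.21% of all genes. Leaving the 10 genes aside, 46 were tested, of which 9 had an unadjusted p under 0.05. Of the 46, 7 lay higher and 2 lower at 11 weeks without overlap, together 19.6% beside 11.9% of all genes tested. The median log2 fold change of the 46 was 0.27 beside 0.05. Genes of low level are among all genes tested. In the more abundant genes grouped above by exon length, 5.62% to 10.9% per group lay lower without overlap and 6.03% to 8.95% higher. The lists were also chosen with earlier results of these data known. Whether 19.6% exceeds the share in genes of like level was not tested.

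Of the 6 enzymes that hydrolyse ATP and ADP, 5 had a positive log2 fold change, and Entpd1, the most abundant, was the 1 with a negative value. Entpd3 was at 183.9, 357.9 and 82.5 normalized counts at 11 weeks and at 49.9, 69.3 and 37.6 at 8 weeks, without overlap (limma adjusted p = 0.604). Enpp3 was at 101.1, 35.3 and 221.1 against 14.3, 0 and 3.4, again without overlap (limma adjusted p = 0.334). The list median was 1.59, and 1.32 with Entpd2 and Entpd8, which had no read at 8 weeks, set to the bound that 3 reads allow. Of the 3 AMP-hydrolysing enzymes only Nt5e was well expressed, and Alpl, a phosphatase, was at 0.9, 0 and 19.9 normalized counts at 11 weeks and at 35.7, 2.8 and 0 at 8 weeks (limma adjusted p = 0.932).

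Of the 6 genes of adenosine removal and transport, 4 had positive and 2 negative log2 fold changes, with a median of 0.38. Pnp, the phosphorylase that acts on inosine after Ada, was at 2010.9, 1850.8 and 2248.7 normalized counts at 11 weeks and at 1385.6, 1396.5 and 832.7 at 8 weeks. The 11-week libraries were all higher (log2 fold change 0.79 ± 0.29, SE; limma adjusted p = 0.479). Pnp has a close tandem copy, so its reads are uncertain. Slc29a3, a lysosomal nucleoside transporter, was at 7766 ± 1086 at 11 weeks and 8961 ± 789 at 8 weeks (SD, n = 3 each; limma adjusted p = 0.808).

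The 2 genes of NAD-consuming ectoenzymes had positive log2 fold changes. Bst1 was at 1153, 1026.2 and 704.2 normalized counts at 11 weeks and at 469, 306.2 and 257.9 at 8 weeks, with no overlap (log2 fold change 1.49 ± 0.40, SE; limma adjusted p = 0.277; DESeq2 adjusted p = 0.00576). Cd38 was at 4144.1, 4709.8 and 2193.4 normalized counts at 11 weeks and at 1628.1, 2529.7 and 1561.3 at 8 weeks, and the third 11-week library lay inside the 8-week range (log2 fold change 0.91 ± 0.31, SE; limma adjusted p = 0.422).

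Among the 3 genes linked to ATP release, Gja1, which encodes connexin 43, came closest to the threshold. It was at 1757.1, 1006.1 and 743.2 normalized counts at 11 weeks and at 297.8, 213.3 and 114.4 at 8 weeks. All 11-week libraries were higher (log2 fold change 2.49 ± 0.47, SE; limma adjusted p = 0.0877; edgeR adjusted p = 0.0588; DESeq2 adjusted p = 4.38e-05). Gja1 is also made by fibroblasts and mammary epithelium, whose marker sums were higher at 11 weeks too, and their part was not tested. Panx1, which encodes the pannexin channel, was at 242 ± 44.5 at 11 weeks and 177 ± 65.3 at 8 weeks, and Slc17a9, a vesicular ATP transporter, at 54.9 ± 32 and 37.9 ± 32.1 normalized counts (SD, n = 3 each; limma adjusted p = 0.831 and 0.85).

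**Figure D5:**
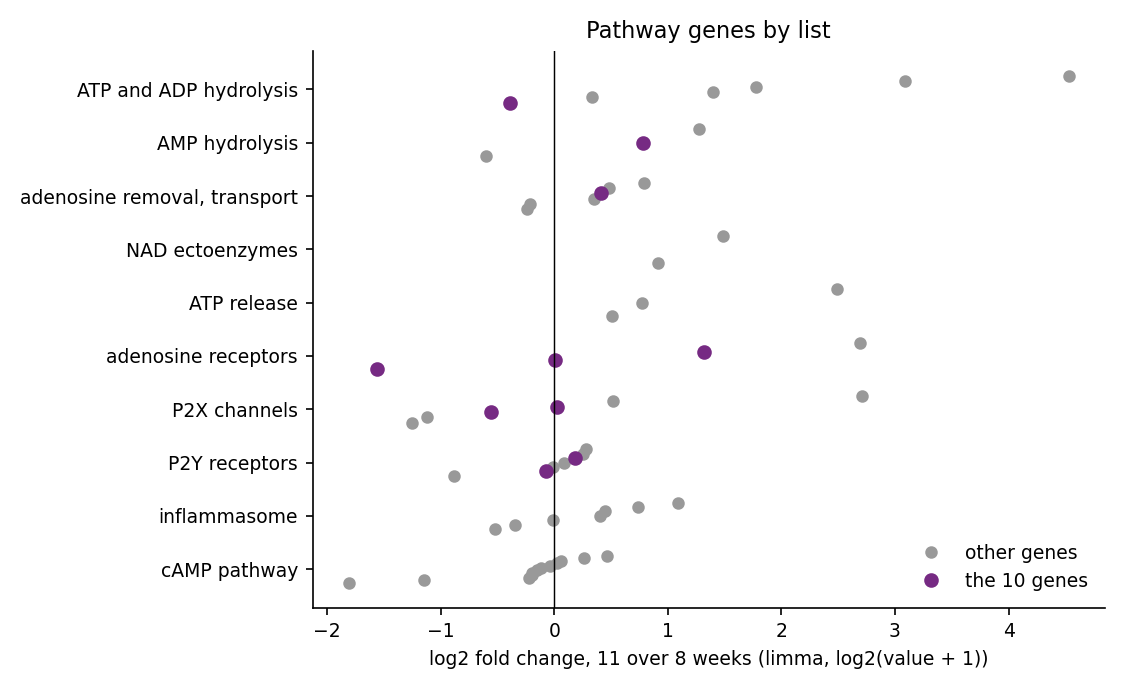
Log2 fold change of 11 over 8 weeks from limma (horizontal axis) for the 56 tested genes of the 10 lists (rows), with the 10 genes described above in purple and the others in grey. Genes of nucleotide hydrolysis, NAD-consuming ectoenzymes and ATP release lie mostly to the right of 0, and the P2Y receptors and cyclic AMP genes lie around it.

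The other P2X and P2Y genes were low or overlapped. P2rx2 and P2ry4 did not reach the level tested, and P2rx5 and P2rx6 were at 12 to 123.3 and 2.7 to 133.1 normalized counts at 11 weeks and at 0 to 20.8 and 36 to 48.7 at 8 weeks (limma adjusted p = 0.709 and 0.835). Of the 7 tested P2Y genes none had an unadjusted p under 0.05, and the median log2 fold change was 0.09. P2ry1 was at 72.6, 47.4 and 184.9 normalized counts at 11 weeks and at 222, 137.2 and 132.4 at 8 weeks, and P2ry2 at 282 ± 100 and 246 ± 136 (SD, n = 3 each; limma adjusted p = 0.803 and 0.909).

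Downstream of P2X7, the inflammasome list had 4 positive and 3 negative log2 fold changes with a median of 0.40. Il1b, whose product the inflammasome matures, was at 33387.3, 45493.9 and 44112.9 normalized counts at 11 weeks and at 24519.1, 23356.1 and 12016.3 at 8 weeks. The groups did not overlap (log2 fold change 1.09 ± 0.23, SE; limma adjusted p = 0.132; DESeq2 adjusted p = 0.0268). Neutrophils also make Il1b, and their marker sum was higher at 11 weeks too. Their part was not tested. Nlrp3, the sensor, was at 7804.6, 7258.2 and 7555.3 normalized counts at 11 weeks and at 6751.5, 6533.4 and 3821.2 at 8 weeks, without overlap (limma adjusted p = 0.658). Casp1, the protease, was at 1754.4, 1887.1 and 947.1 against 2614.3, 1774.7 and 1996 normalized counts (limma adjusted p = 0.719). Of the 12 genes of the cyclic AMP pathway, 8 had negative log2 fold changes, with a median of -0.14. Pde4a, a phosphodiesterase that degrades cyclic AMP, was at 218.8, 168.4 and 158.6 normalized counts at 11 weeks and at 278.2, 497.4 and 468.9 at 8 weeks, without overlap (limma adjusted p = 0.591). Adcy7, a cyclase of leukocytes, was at 4193 ± 493 at 11 weeks and 4785 ± 144 at 8 weeks, and Adcy4 at 22.4 ± 31.2 and 46.6 ± 56.2 normalized counts (SD, n = 3 each; limma adjusted p = 0.825 and 0.807).

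Genes with a like profile over the 6 libraries were sought for Entpd1, which had the highest normalized counts, and for P2rx7, which had the smallest p. Likeness was the root mean square distance between centred log2 profiles over genes averaging 100 or more normalized counts. Hipk2, Dhrs3 and Ssh2 were nearest to Entpd1, at 0.039, 0.046 and 0.055 log2 units, where the median of 9823 genes was 0.463. Man1a2, Rnf217 and Cep170 were nearest to P2rx7, at 0.056, 0.083 and 0.084, where the median was 0.509. The profiles of Entpd1 and P2rx7 themselves had a root mean square of 0.230 and 0.312, and the distances are a description.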

How the data were processed

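RNA of mammary gland macrophages, sorted from female MMTV-PyMT mice, was sequenced in 6 libraries, prepared with Nugen Ovation and Nextera kits per the labels' protocols. STAR 2.4, DESeq2 1.6 and GRCm38 appear in the submitters' processing notes, without roles. For the counting tool, annotation and strand setting nothing is stated in the labels. The deposited signal values are the authors' counts per gene over a library-wide size factor, to 1 decimal, as the values show. The deposited table also holds the authors' log2 fold change, fold ratio, p-value and adjusted p-value for 11 against 8 weeks.

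Each value was divided by its library's step, and at least 99.834% of nonzero values lay within 0.05 normalized counts of a whole number of reads. In 11-week replicate 2 the step was 1.0081, so low values alone did not set it apart from rounding, but 100% of its values between 50 and 400 were whole, where chance gives 9.92%. The floor of 3 reads at a count of 0 covers counting error only, and reads without molecular identifiers are not independent molecules. No 2 libraries were identical, and libraries of one age differed with chi-square per degree of freedom of 116.3 to 331.5.

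Genes averaging 1 or more normalized counts at 1 of the ages were tested with limma (trend and robust) on log2(value + 1), with age as the only term and Benjamini-Hochberg adjustment over all 21675 genes. Fold changes of low genes can lie below or above those of the count tests. For Entpd2, with no read at 8 weeks, limma gave 3.09 and edgeR 7.36, and for Adora1 limma gave 2.69 and edgeR 2.29. Alternatives were edgeR and DESeq2 on recovered reads, other scalings, filters and pseudocounts, a replicate block and leaving out each library. The fits were tested on simulated data.

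The 10 genes and the 24 lists (140 entries, 139 matched by symbol and 1 by gene ID) were chosen with earlier results of these data known. Named genes were the 10, any called gene of a pathway list, and up to 3 others per list with the smallest p and a mean of 8 or more normalized counts. Genes of like profile were the 3 nearest to the gene with the highest mean and to that with the smallest p. Exon lengths came from GENCODE M21 and windows from RefSeq (GRCm38.p6), which matched 8 of the 10 genes. Fits were run in R 4.3.3 (DESeq2 1.42.0, edgeR 4.0.16, limma 3.58.1) and tables and plots made with matplotlib 3.10.9, numpy 2.4.6 and pandas 2.3.3 under Python 3.11.15.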

Additional observations from a re-analysis of the deposited data

How the results depend on the processing

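None of the 10 genes was called under any of the 16 alternatives run, and the smallest adjusted p of any of them was 0.139, for P2rx7 with DESeq2. At an unadjusted p under 0.05, leaving out 1 library left 0 to 2 of the 11 rows, with 0 left without 8-week replicate 3. The signs of Entpd1 (-0.48 to -0.31), P2rx7, Adora3 on its main row (-1.94 to -1.11), Adora2b (0.90 to 1.90), Nt5e (0.31 to 1.21), Ada (0.01 to 0.73) and P2ry12 (0.09 to 0.29) held in all 16. Adora2a turned negative with library-total scaling (-0.08), a pseudocount of 8 (-0.08), edgeR (-0.85) and DESeq2 (-0.83), and ran from -0.54 to 1.11 when 1 library was left out, -0.19, -0.04, -0.54 and -0.53 being its negative values. The second Adora3 row turned positive without 11-week replicate 3 (0.89) and without 8-week replicate 2 (1.10), and ran from -1.42 to 1.10. P2rx4 turned negative with library-total scaling (-0.06) and without 11-week replicate 3 (-0.02) or 8-week replicate 3 (-0.01), with a range of -0.02 to 0.08 over the libraries left out, and P2ry6 turned positive without 11-week replicate 3 (0.08) or 8-week replicate 1 (0.07), with a range of -0.23 to 0.08. The cause was not tested. Over all genes the count of 11 became 4 with library-total scaling, 5 with a pseudocount of 8 and 418 with DESeq2. It ran from 3 (without 8-week replicate 1) to 16 when 1 library was left out, and was 4 without 11-week replicate 1. Of the pathway genes, where limma called 0, DESeq2 called 4, and 0 were called without any 1 library.

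The replicate block called 45 genes over all and 2 pathway genes, Gja1 and Il1b. Same-numbered libraries did not deviate together (r = -0.030, 0.000 and -0.025 over 16775 genes), so the numbers were not taken as pairs. With 3 libraries per age, a p that misses the threshold does not show that the ages are alike. Depth limits Adora2a and Adora3, with 19 to 127 and 22 to 216 recovered reads per library.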
